A study of Mus musculus with 8 samples.

Results

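The 47 genes described here encode laminins, proteoglycans and other matrix proteins of brown adipose tissue (BAT) apart from the collagens. They are the rows of the deposited count table whose gene name equals one of 47 names chosen for this description, out of 56953 genes in all, and every name was found once. By role they fall into 6 lists: 11 genes of the basement membrane, 6 small leucine-rich proteoglycans, 7 proteoglycans of the cell surface, 11 adhesive and matricellular proteins, 10 elastic fibre genes, and a pair formed by the hyaluronan-binding proteoglycan Vcan and the calcification inhibitor Mgp.

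The study asked how cancer-associated cachexia, the wasting that accompanies a tumour, changes BAT. Bulk RNA was sequenced from 4 control (CTR) and 4 cachectic (CAC) mice, 1 library per mouse. All were WT C57BL/6J mice, 8 to 10 weeks old, with free access to food and water. The labels give them as male or female, and in each library Xist had at most 1 count and Ddx3y stood at 62.2 to 72.9 CPM. CAC mice carried 3000000 LLC cells, an established mouse lung carcinoma line, placed under the skin of the right flank in PBS and followed for 21 days, and CTR mice were given the PBS alone. As a model this is 1 tumour line at 1 subcutaneous site, read at a single end point.

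A basement membrane is a thin sheet under endothelium and around each adipocyte, muscle fibre and Schwann cell. Laminins are trimers of an alpha, a beta and a gamma chain that polymerise into this sheet, nidogens and perlecan tie it to type IV collagen, and agrin links it to receptors. In the interstitium around it, small leucine-rich proteoglycans bind collagen fibrils, fibrillins and fibulins order elastic fibres, matricellular proteins alter how cells adhere, and syndecans and glypicans carry heparan sulphate chains at the cell surface, where they act as co-receptors for growth factors.

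Promoter sequences are shown for Sdc4, the only member called (adjusted p below 0.05), and Fbln5, whose groups did not overlap. Lamc1, whose groups did not overlap either, has no promoter entry. A sequence is also shown for Hspg2, the member with the most negative log2 fold change. Each covers 250 bases before to 50 after the start of the RefSeq gene in GRCm38.p6, read 5′ to 3′ on the strand of the gene. Sdc4 is at chr2:164443139-164443438 on the minus strand, Fbln5 at chr12:101819070-101819369 on the minus strand and Hspg2 at chr4:137468553-137468852 on the plus strand. Capitals mark GC boxes (GGGCGG, or CCGCCC where the match is on the other strand) and, in Fbln5, a CCAAT box.
Sdc4: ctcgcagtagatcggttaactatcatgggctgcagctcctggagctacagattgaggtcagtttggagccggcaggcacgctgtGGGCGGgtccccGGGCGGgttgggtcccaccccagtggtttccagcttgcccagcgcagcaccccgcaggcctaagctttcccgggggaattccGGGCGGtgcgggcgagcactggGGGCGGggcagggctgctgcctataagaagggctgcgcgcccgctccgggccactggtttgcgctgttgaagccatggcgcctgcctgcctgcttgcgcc
Fbln5: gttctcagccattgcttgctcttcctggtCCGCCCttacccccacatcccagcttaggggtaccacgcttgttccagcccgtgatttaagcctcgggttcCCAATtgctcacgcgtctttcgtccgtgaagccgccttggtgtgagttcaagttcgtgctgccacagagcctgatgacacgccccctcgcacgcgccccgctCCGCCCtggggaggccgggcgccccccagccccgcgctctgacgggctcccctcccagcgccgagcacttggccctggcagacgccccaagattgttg
Hspg2: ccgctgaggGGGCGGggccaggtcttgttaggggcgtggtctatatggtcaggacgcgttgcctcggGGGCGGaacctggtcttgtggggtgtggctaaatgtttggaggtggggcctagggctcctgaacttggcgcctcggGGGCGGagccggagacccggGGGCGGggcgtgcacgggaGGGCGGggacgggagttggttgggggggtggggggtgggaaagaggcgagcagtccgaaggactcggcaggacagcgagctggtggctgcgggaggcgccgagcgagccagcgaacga
The Sdc4 window holds 4 GC boxes, the Fbln5 window 2 with 1 CCAAT box, and the Hspg2 window 5, with a GC content of 67.7%, 65.7% and 70.3%. The window of Fbln1, not shown, holds no GC box and no CCAAT box and has a GC content of 51.7%. A GC box on either strand was present in 19 of the 31 members with a promoter entry (61.3%) and in 35.7% of 32851 RefSeq promoters of the same length. CCAAT was present in 11 of the 31 (35.5%, against 37.4%), TATAAA in 5 (16.1%, against 13.6%) and the AP-1 letters TGANTCA in 2 (6.45%, against 7.81%). The CRE letters TGACGTCA, in 1.79% of all promoters, and the NF-kB motif, in 0.411%, were in none of the 31 windows. The members with and without these letters were not compared in expression, and the annotated GENCODE start of Sdc4 (base 164443887) lies upstream of the window shown and that of Fbln5 (base 101819055) just downstream of its window.

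Total counts were 2454493 to 4827956 per library in CTR and 1823167 to 3392538 in CAC, of which mitochondrially encoded genes held 28.5% to 33.8%. Expression is given in CPM, counts scaled by TMM to libraries of equal size, and 3 counts, up to which a gene without a count could lie by counting error, are worth 0.661 to 1.62 CPM. The brown adipocyte marker Ucp1 stood at 3965 ± 186 CPM in CTR and 4059 ± 601 in CAC (SD, n = 4). Summed markers of neutrophils were 11.5 to 15.2 CPM in CTR and 170 to 438 in CAC, those of macrophages 145 to 175 and 219 to 288 CPM, those of skeletal muscle 1440 to 3426 and 3118 to 5586 CPM, and those of erythroid cells 6179 to 19266 and 14631 to 44312 CPM. None of these 4 marker lists had a gene at 0 in all libraries, whereas 3 of 5 mesothelial markers (Msln, Upk3b and Upk1b) were at 0 throughout. The genes of these lists called by edgeR were S100a9, S100a8 and Retnlg of the neutrophil markers (log2 fold change 5.45, 5.57 and 3.40, edgeR adjusted p = 0.000182, 0.00515 and 0.0155) and C1qa and C1qb of the macrophage markers, and DESeq2 also called Myh4 and Pvalb of the muscle markers. Of the mean neutrophil sum in CAC, 273 CPM, S100a8 and S100a9 held 175 and 73.5 CPM. All 4 tested neutrophil markers had a positive log2 fold change. The paper places S100A9 protein in brown adipocytes and reports no significant difference in neutrophil or CD45+ cell numbers. Whether this sum follows neutrophil number was not tested. In bulk tissue, fewer cells of a type and less RNA per cell cannot be told apart. Each p-value below sets a difference between the groups against the spread between these mice.

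Of the 47 members, 29 had enough counts to be tested among 9876 genes by edgeR's quasi-likelihood test. Sdc4 alone reached a Benjamini-Hochberg adjusted p below 0.05, and it was higher in CAC. That is 1 of 29 against 0.739% of all genes tested, and no member was called lower against 0.192%. DESeq2 called none of the 29, and limma-trend called Sdc4. At an unadjusted p below 0.05, 4 members were higher (Sdc4, Lamc1, Fbln5 and Fbln1), against 7.01% of all genes, and 1 was lower (Hspg2), against 5.93%. In 3 members each CAC library exceeded each CTR library (Sdc4, Lamc1 and Fbln5), against 3.64% of all genes, and in none did each fall below, against 3.4%. The median log2 fold change of CAC over CTR (log2FC) was 0.15 over the 29 tested members, 18 of them positive, while over all genes tested it was 0.00 with 4935 positive. The median over the members was 0.08 without CTR replicate 3 and 0.09 without CAC replicate 2.

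For 13 of the 29 tested members the 95% interval of the fold change stayed within 1.5-fold in either direction. These were Lama4, Lamb1, Lamb2, Nid1 and Agrn of the basement membrane, Dcn, Bgn and Prelp among the small leucine-rich proteoglycans, Sparc, Sparcl1 and Postn among the matricellular genes, and Mfap5 and Mgp. For the other 16 the interval reached beyond 1.5-fold on at least one side.

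**Figure D1:**
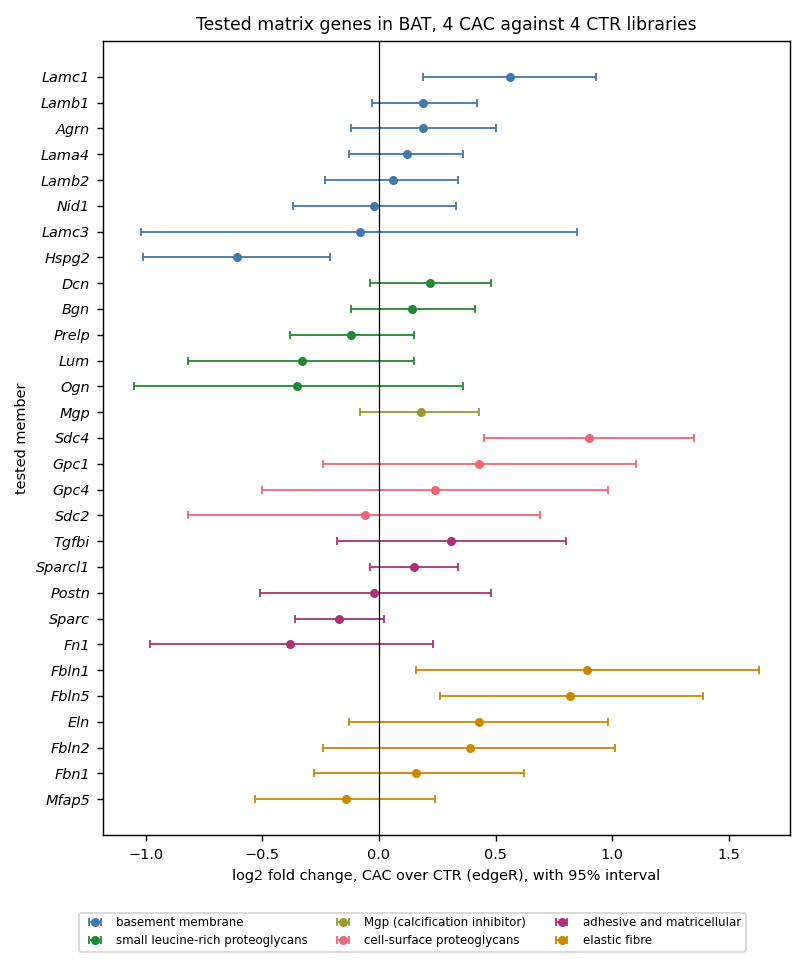
Log2FC of CAC over CTR (horizontal axis) for each of the 29 tested members (vertical axis, coloured by role), with points for the edgeR estimate and bars for its 95% interval. The intervals of Sdc4, Lamc1, Fbln5 and Fbln1 lie above 0, that of Hspg2 lies below 0, and the other 24 include 0.

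**Figure D2:**
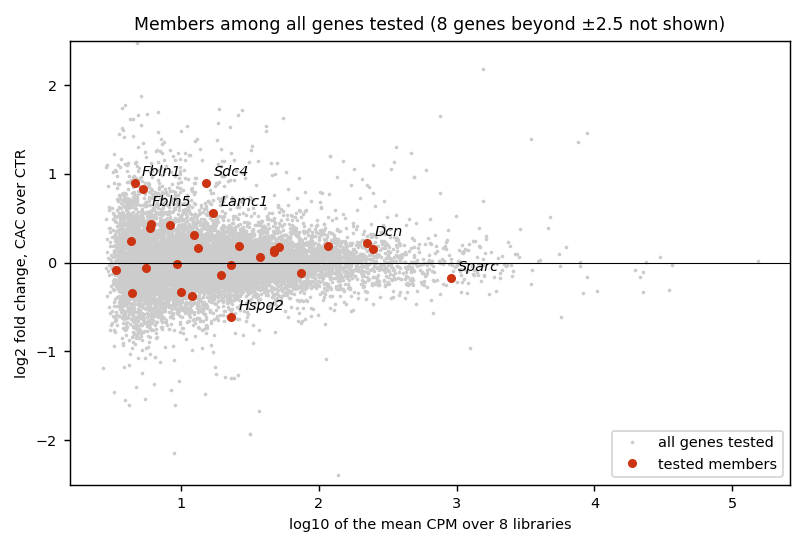
Log2FC of CAC over CTR (vertical axis) against the log10 of the mean CPM over the 8 libraries (horizontal axis) for all 9876 genes tested (grey) and the 29 tested members (red). The members lie within the cloud of all genes, from -0.61 for Hspg2 to 0.90 for Sdc4, and 8 genes beyond 2.5 in either direction are not drawn.

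Sdc4 (ENSMUSG00000017009.4) encodes syndecan-4, a transmembrane heparan sulphate proteoglycan of focal adhesions, and lies on chromosome 2 of GRCm38 from 164424247 to 164443887, minus strand. Its expression was 7.92, 9.85, 7.88 and 16.1 CPM in CTR replicates 1 to 4 and 17.8, 19.1, 19.3 and 24.1 in CAC replicates 1 to 4. Every CAC library was above every CTR library, with CTR replicate 4 close to the lowest CAC value. The mean was 10.4 ± 3.88 CPM in CTR and 20.1 ± 2.72 in CAC (SD, n = 4), a log2FC of 0.90 (standard error, SE, 0.22, 95% interval 0.45 to 1.35, edgeR adjusted p = 0.0494). The call stood at the threshold: over 15 alternative settings the log2FC stayed between 0.79 and 1.23, but the adjusted p ran from 0.00218 to 0.164 and was above 0.05 in 10 of them. With 1 library left out, edgeR's adjusted p was 0.153, 0.143 and 0.0859 without CTR replicate 1, 2 and 3, and 0.0533, 0.0897, 0.103 and 0.164 without CAC replicate 1, 2, 3 and 4, whereas without CTR replicate 4 it was 0.00356. The Sdc4 counts of 4 libraries hold fractions of reads. Macrophage and neutrophil marker sums, the latter mostly S100a8 and S100a9 in CAC, were also higher in every CAC library than in every CTR library. Their part in the Sdc4 result was not tested.

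The other syndecans and glypicans had few reads. Gpc1, a glypican anchored by a lipid in the outer membrane leaflet, was at 5.04, 6.13, 7.47 and 2.87 CPM in CTR and 3.24, 7.44, 9.38 and 6.62 in CAC, with groups that overlapped (log2FC 0.43, SE 0.32, edgeR adjusted p = 0.618). Its log2FC was 0.18 without CTR replicate 4, 0.18 without CAC replicate 3 and 0.62 without CAC replicate 1. Some of its exons overlap those of Ankmy1, and its counts hold fractions in 4 libraries. Gpc4 averaged 4.03 ± 1.54 CPM in CTR and 4.60 ± 2.04 in CAC (SD, n = 4), and Sdc2, a syndecan of mesenchymal cells, 5.48 ± 2.25 and 5.65 ± 2.72 CPM. The log2FC was 0.24 for Gpc4 and -0.06 for Sdc2, where the sign was opposite to the difference of means and depended on which libraries were kept. The log2FC of Gpc4 was 0.04 without CAC replicate 3, 0.07 without CTR replicate 3, 0.41 without CTR replicate 1 and 0.47 without CAC replicate 2. Sdc1, Sdc3 and Gpc6 were below the filter. Sdc1, best known from epithelia and plasma cells, was at 0.533 to 0.882 CPM in CTR and 0.586 to 2.70 in CAC (exact permutation p = 0.114), Sdc3 at 1.66 to 3.20 and 1.76 to 3.19 CPM, and Gpc6 at 0.266 to 1.10 and 0 to 0.879 CPM. The summed CPM of all 7 genes was 25.3 to 33.3 in CTR and 38.9 to 43.1 in CAC, where Sdc4 accounts for 10.4 and 20.1 CPM on average.

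**Figure D3:**
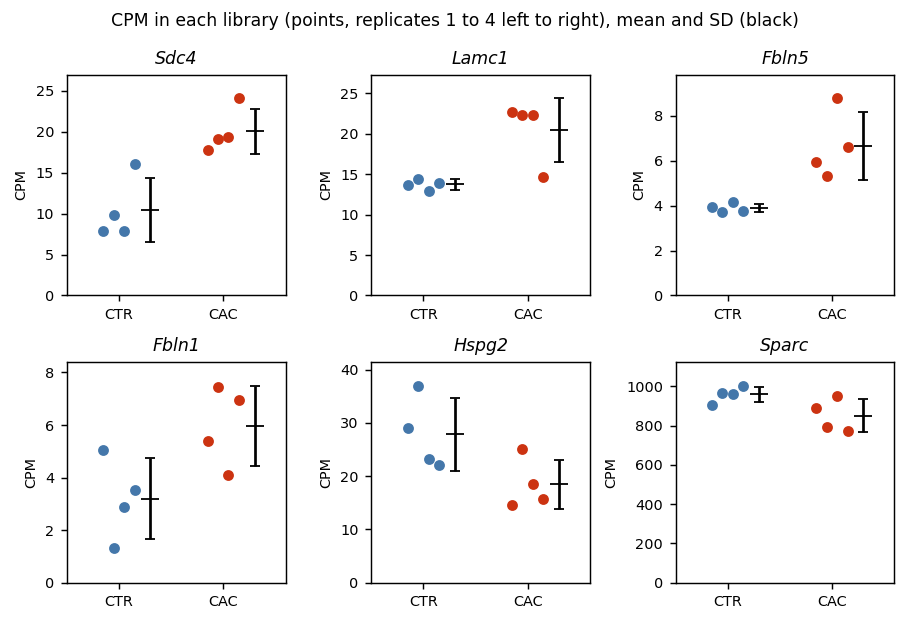
CPM (vertical axis, from 0) of Sdc4, Lamc1, Fbln5, Fbln1, Hspg2 and Sparc in each CTR (blue) and CAC (red) library, with points for libraries and black marks for the mean and SD of 4 libraries. Sdc4, Lamc1 and Fbln5 do not overlap between the groups, and the CAC library of Lamc1 at 14.6 CPM sits just above the highest CTR value of 14.4 CPM.

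Among the laminins, the intervals for the alpha 4, beta 1 and beta 2 chains stayed within 1.5-fold, and the gamma 1 chain had a higher mean in CAC that did not pass the adjusted threshold. Lamc1 (ENSMUSG00000026478.15, chromosome 1 of GRCm38, 153218922 to 153332786, minus strand), the gamma chain shared by most laminin trimers, was at 13.7, 14.4, 12.9 and 13.9 CPM in CTR and 22.7, 22.3, 22.3 and 14.6 in CAC. The CTR libraries lay close together, and CAC replicate 4 fell next to them rather than with the other CAC libraries. Means were 13.7 ± 0.633 and 20.5 ± 3.90 CPM (SD, n = 4), a log2FC of 0.56 (SE 0.18, 95% interval 0.19 to 0.93, edgeR adjusted p = 0.150, unadjusted p = 0.00479). Over the 15 alternatives the log2FC was 0.50 to 0.71 and the adjusted p 0.0628 to 0.322.

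Lamb1 (ENSMUSG00000002900.18), the beta chain of the same trimers, was at 116, 99.1, 104 and 113 CPM in CTR and 117, 111, 127 and 138 in CAC. The upper CTR and lower CAC libraries overlapped, and the log2FC was 0.19 (SE 0.11, 95% interval -0.03 to 0.42, edgeR adjusted p = 0.472). Lama4 (ENSMUSG00000019846.12), the alpha chain of endothelial and adipocyte basement membranes, was at 49.3, 47.7, 41.1 and 43.2 CPM in CTR and 49.2, 53.2, 49.8 and 45 in CAC. The groups overlapped, with a log2FC of 0.12 (SE 0.12, edgeR adjusted p = 0.737). Lamb2, the beta chain of vessel walls and neuromuscular junctions, averaged 36.5 ± 5.07 and 38.3 ± 4.12 CPM, a log2FC of 0.06, and Lamc3 3.28 ± 1.43 and 3.46 ± 2.27 CPM (SD, n = 4) with a log2FC of -0.08, opposite in sign to the difference of means, that changed sign with the libraries kept. The alpha 2 chain of muscle and nerve, Lama2, was below the filter at 2.66 to 4.98 CPM in CTR and 1.06 to 5.86 in CAC, and so was Lama5 at 1.07 to 1.80 and 0.879 to 3.19 CPM.

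The cross-linking members of the basement membrane gave no call. Hspg2 (ENSMUSG00000028763.19, chromosome 4 of GRCm38, 137468769 to 137570630, plus strand) encodes perlecan, the large heparan sulphate proteoglycan of basement membranes. Its values were 29.1, 37.0, 23.2 and 22.0 CPM in CTR and 14.6, 25.0, 18.5 and 15.7 in CAC. Only CAC replicate 2 reached into the CTR range. The mean was 27.9 ± 6.85 and 18.4 ± 4.67 CPM (SD, n = 4), a log2FC of -0.61 (SE 0.19, 95% interval -1.01 to -0.21, edgeR adjusted p = 0.151, unadjusted p = 0.00493). Over the 15 alternatives the log2FC of Hspg2 was -0.76 to -0.43, with an adjusted p from 0.0167 (no filter on low counts, edgeR) to 0.455 (without CTR replicate 2), above 0.05 in 14 of the 15. Hspg2 was singled out, like Fbln1 below, after its values were seen. Endothelial marker sums were 1225 to 1257 CPM in CTR and 978 to 1465 in CAC, and mural marker sums 177 to 186 and 141 to 189 CPM. The endothelial sum is mostly Egfl7, 940 of 1242 CPM on average in CTR. Of the 7 endothelial markers tested, 5 had a negative log2FC and 2 a positive one. The part of these cell types in the Hspg2 value was not tested. Nid1, the main nidogen, was at 23.3 ± 3.10 and 22.8 ± 4.98 CPM with a log2FC of -0.02 that turned positive without some libraries, and agrin (Agrn) at 24.4 ± 2.49 and 28.4 ± 4.43 CPM (SD, n = 4) with a log2FC of 0.19. Nid2 was below the filter at 1.44 to 2.66 CPM in CTR and 0 to 2.05 in CAC, where replicate 1 had no count, which allows up to 1.62 CPM, and replicate 4 had 0.5 of a read, which was rounded to 0.

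Ratios between chains in the same library do not depend on scaling between libraries, and 4 were compared, with 0.5 added to each count. Where a count is at or near 0, the added 0.5 makes the ratio depend on depth. The log2 ratio of Lama2 to Lama4 differed by -0.74 in CAC (exact permutation p = 0.257, adjusted over the 4 ratios 0.514). It differed by -0.46 without CAC replicate 2, by -0.49 without CTR replicate 3 and by -1.22 without CAC replicate 3, where Lama2 was at 5.86 CPM against 1.06 to 1.62 CPM in the other CAC libraries. The log2 ratio of Lama5 to Lama4 differed by -0.16 (exact permutation p = 0.714). The log2 ratio of Lamb1 to Lamb2 was 1.57 ± 0.27 in CTR and 1.68 ± 0.22 in CAC, where ± is the SD of 4 libraries (two-sided exact permutation p = 0.571). The log2 ratio of Nid1 to Nid2 was 3.68, 3.08, 3.54 and 3.72 in CTR and 6.19, 4.12, 3.77 and 6.79 in CAC. All CAC values were above all CTR values, with an exact permutation p of 0.0286, the smallest that 4 against 4 libraries allow, and 0.114 after adjustment over the 4 ratios. The difference was 1.71, and it was 1.24 with 1 added to each count and 1.45 with the counts left unrounded, where CAC replicate 4 stood at 5.79 (exact permutation p = 0.0286 in both). Nid2 had between 0 and 7 counts in the CAC libraries. In CAC replicates 1 and 4, where its rounded count was 0, the main ratio only sets the Nid1 count against the added 0.5. The CPM of Nid2 itself overlapped between the groups (exact permutation p = 0.143).

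The small leucine-rich proteoglycans showed no call and no common direction, with 2 of 5 tested members positive and a median log2FC of -0.12. Dcn (decorin, which binds collagen fibrils and growth factors) was at 198, 209, 220 and 200 CPM in CTR and 216, 180, 281 and 283 in CAC. CTR libraries were tightly grouped, while CAC libraries lay on both sides of them (log2FC 0.22, SE 0.12, edgeR adjusted p = 0.480). Prelp, which anchors basement membranes to connective tissue, was at 65.9, 81.5, 81.3 and 83.1 CPM in CTR and 71.9, 58.5, 87.0 and 69.0 in CAC, again overlapping (log2FC -0.12, SE 0.13, edgeR adjusted p = 0.763). Bgn (biglycan) averaged 44.9 ± 4.85 and 50.3 ± 6.90 CPM, Lum (lumican) 11.3 ± 2.06 and 8.83 ± 2.42 CPM, and Ogn (osteoglycin) 5.10 ± 1.45 and 3.70 ± 1.79 CPM (SD, n = 4), with log2FC values of 0.14, -0.33 and -0.35. With a library left out, these ran from 0.09 to 0.24 for Bgn, -0.47 to -0.18 for Lum and -0.57 to -0.19 for Ogn. Fmod (fibromodulin) was below the filter, at 0 to 2.13 CPM in CTR and 0 to 1.06 in CAC. Dcn and Lum are neighbours on chromosome 10, 47.0 kb apart, and their log2FC values had opposite signs, as the fit gave 0.22 and -0.33. Prelp and Fmod lie 116 kb apart on chromosome 1.

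Matricellular and adhesive genes gave some of the most precise values and no call. Sparc (ENSMUSG00000018593.14, chromosome 11 of GRCm38, 55394500 to 55423183, minus strand), a calcium-binding protein that binds collagen, was at 905, 964, 960 and 1004 CPM in CTR and 887, 791, 953 and 773 in CAC. CAC replicate 3 lay among the CTR libraries and the remaining CAC libraries below them. The mean was 958 ± 40.5 and 851 ± 84.6 CPM (SD, n = 4), a log2FC of -0.17 (SE 0.09, 95% interval -0.36 to 0.02, edgeR adjusted p = 0.453). Its relative Sparcl1, known from vessels, was at 229, 223, 239 and 246 CPM in CTR and 257, 241, 286 and 254 in CAC. The CAC values were mostly above the CTR values, with CAC replicate 2 between CTR replicates 3 and 4 (log2FC 0.15, SE 0.09, 95% interval -0.04 to 0.34, edgeR adjusted p = 0.533).

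Fn1, fibronectin, was at 10.4 to 20.9 CPM in CTR and 4.87 to 15 in CAC, a log2FC of -0.38, and Tgfbi, an adhesive protein induced by TGF-beta, at 7.47 to 16.8 and 11.7 to 18.1 CPM, a log2FC of 0.31. The log2FC of Fn1 was -0.13 without CTR replicate 1, -0.18 without CAC replicate 1 and -0.63 without CAC replicate 4, and that of Tgfbi ranged from 0.15 to 0.58 over the alternatives. Postn, periostin, averaged 9.47 ± 1.42 and 9.05 ± 2.79 CPM (SD, n = 4) with a log2FC of -0.02, whose sign was not stable when libraries were left out. The remaining 6 genes were below the filter. Among the thrombospondins, Thbs1 was at 0.415 to 2.16 CPM in CTR and 0 to 1.47 in CAC, Thbs2 at 0.266 to 0.830 and 0 to 1.47 CPM, and Thbs4 at 0 to 2.16 and 0 to 1.6 CPM. Tnc (tenascin-C) had 6 counts in all 8 libraries together, and Tnxb, which overlaps Cyp21a2-ps, was at 1.24 to 2.13 CPM in CTR and 0.541 to 2.79 in CAC. Spp1, osteopontin, a cytokine-like protein of activated macrophages, was at 0 in all 4 CTR libraries and had 3 counts in CAC, in replicates 3 and 4 (exact permutation p = 0.429), so it was not detectable in CTR above 0.661 to 1.24 CPM.

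In the elastic fibre list, 5 of 6 tested members had a positive log2FC, with a median of 0.41, and none was called by edgeR, DESeq2 or limma-trend. Fbln5 (ENSMUSG00000021186.10, chromosome 12 of GRCm38, 101746565 to 101819055, minus strand), a fibulin that guides elastin onto microfibrils, was at 3.96, 3.73, 4.15 and 3.75 CPM in CTR and 5.95, 5.32, 8.79 and 6.62 in CAC. All CAC libraries lay above the narrow CTR range. The mean was 3.90 ± 0.198 and 6.67 ± 1.51 CPM (SD, n = 4), a log2FC of 0.82 (SE 0.27, 95% interval 0.26 to 1.39, edgeR adjusted p = 0.168, unadjusted p = 0.00632). These values rest on 122 counts over the 8 libraries. Fbln1, a fibulin of vessel walls and basement membranes, was at 5.04, 1.33, 2.90 and 3.53 CPM in CTR and 5.41, 7.44, 4.10 and 6.97 in CAC, with CAC replicate 3 below CTR replicate 1. Its log2FC was 0.89 (SE 0.35, edgeR adjusted p = 0.275, unadjusted p = 0.0197) from 100 counts in total.

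The other elastic fibre genes overlapped between the groups. Mfap5, a microfibril glycoprotein, was at 14.4, 22.4, 24.9 and 21.2 CPM in CTR and 16.2, 14.9, 20.2 and 22.3 in CAC (log2FC -0.14, SE 0.18, edgeR adjusted p = 0.808). Fbn1, fibrillin-1, the backbone of microfibrils, was at 15.5, 13.1, 9.54 and 11.7 CPM in CTR and 10.3, 20.2, 13.8 and 12.2 in CAC (log2FC 0.16, SE 0.22, edgeR adjusted p = 0.812). CAC replicate 2 was the highest of all libraries for Fbn1, and without it the log2FC was -0.02. Eln, elastin, averaged 7.05 ± 2.19 and 9.63 ± 2.76 CPM and Fbln2 4.97 ± 1.96 and 6.96 ± 2.18 CPM (SD, n = 4), with log2FC values of 0.43 and 0.39. With a library left out, these ran from 0.25 to 0.55 for Eln and from 0.20 to 0.57 for Fbln2. Below the filter, Mfap4 was at 1.32 to 2.16 CPM in CTR and 0.541 to 1.39 in CAC and Mfap2 at 0.360 to 2.07 and 0 to 0.697 CPM (exact permutation p = 0.0571 and 0.0857). Efemp1 was at 1.07 to 3.96 and 0.541 to 4.40 CPM, and Emilin1 at 0.360 to 2.49 and 1.39 to 2.34 CPM.

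**Figure D4:**
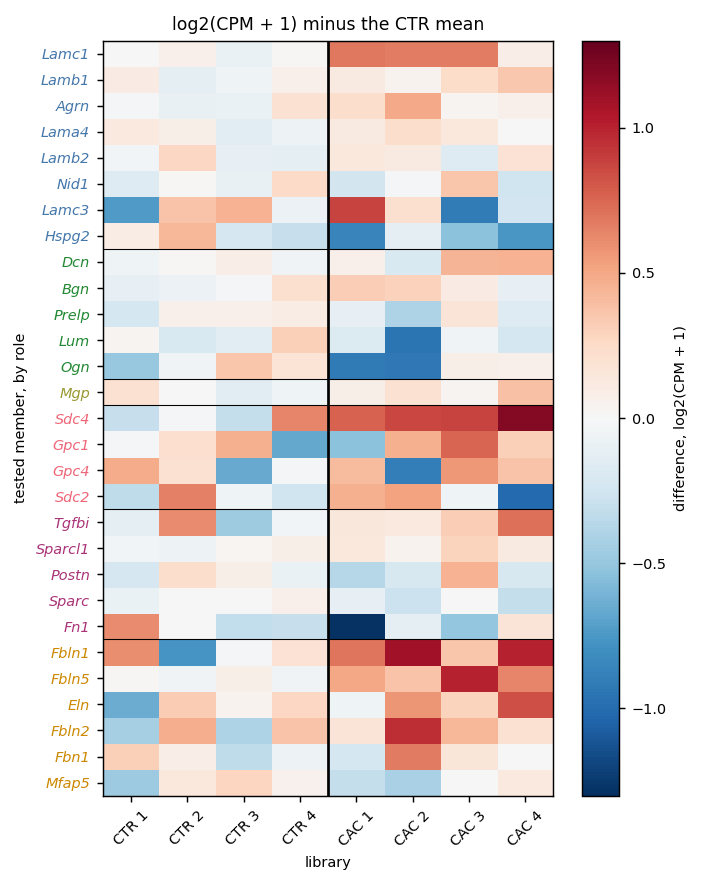
Difference of log2(CPM + 1) in each library from the CTR mean (colour scale) for the 29 tested members (rows, grouped and coloured by role) in CTR and CAC replicates 1 to 4 (columns). Sdc4, Lamc1 and Fbln5 are above the CTR mean in all 4 CAC libraries, Lamc1 only slightly in CAC replicate 4. So are other members whose groups overlap, among them Fbln1, Lamb1, Sparcl1, Mgp, Agrn, Tgfbi and Fbln2.

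Mgp, matrix Gla protein, an inhibitor of calcification in vessel walls, was at 55.4, 48.2, 43.2 and 46.3 CPM in CTR and 50.8, 55.3, 49.2 and 62.7 in CAC. The groups overlapped (log2FC 0.18, SE 0.12, edgeR adjusted p = 0.583). Vcan, versican, was below the filter at 1.80, 2.40, 2.49 and 2.43 CPM in CTR and 1.08, 1.6, 1.17 and 2.09 in CAC. CAC replicate 4 alone lay inside the CTR range, and the exact permutation test gave p = 0.0571.

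In all, 18 members were below the filter, with 3 to 71.5 counts each over the 8 libraries and means of at most 3.35 CPM. The groups overlapped in each of the 18, 12 of which had a lower and 6 a higher mean in CAC. Exons of 15 of the 47 members overlap another annotated gene, and the strand setting of the counting is not given in the sources used here, so reads of such genes could not be separated.

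The genes that act with the members were read from 3 further lists. Of 23 matrix receptors 11 were tested and none was called, with 6 positive, 5 negative and a median log2FC of 0.02. At an edgeR unadjusted p below 0.05, 1 of the 11 was higher and 2 were lower, against 7.01% and 5.93% of all genes tested. The smallest p-values there belonged to the collagen receptor Ddr1, from 8.55 ± 1.68 to 4.77 ± 1.06 CPM (log2FC -0.84, edgeR adjusted p = 0.128), and the laminin receptor dystroglycan, Dag1, from 229 ± 29.8 to 189 ± 13.9 CPM (log2FC -0.28, edgeR adjusted p = 0.258, SD, n = 4). Of 37 genes that build or sulphate glycosaminoglycan chains, 19 were tested and none was called. Of these 14 were negative, with a median of -0.16, while 4941 of all 9876 genes tested were negative. At an edgeR unadjusted p below 0.05, 1 of the 19 was lower, against 5.93% of all genes tested. DESeq2 and limma-trend called none in either list. Chsy1, a chondroitin synthase, was at 11.2 ± 2.64 and 6.62 ± 2.05 CPM (log2FC -0.76, edgeR adjusted p = 0.201), and Ndst1, a heparan sulphate sulphotransferase, at 78.3 ± 2.41 and 67.5 ± 7.37 CPM (log2FC -0.22, edgeR adjusted p = 0.418, SD, n = 4).

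Of the related matrix genes outside the members, 26 were tested, 14 positive and 12 negative. Of the 26, 2 were called higher, against 0.739% of all genes tested. Vwa1, a perlecan-binding protein of basement membranes, rose to 27.9 ± 3.32 CPM from 9.37 ± 1.07 CPM in CTR (SD, n = 4), with a log2FC of 1.57 (SE 0.17, edgeR adjusted p = 2.93e-05). Ecm1, a secreted glycoprotein, rose to 20.2 ± 5.57 CPM from 10.9 ± 1.36 CPM in CTR (SD, n = 4), with a log2FC of 0.91 (SE 0.20, edgeR adjusted p = 0.0304). The call of Vwa1 held in each alternative, with an adjusted p of at most 0.000251, whereas that of Ecm1 was lost with limma-trend (adjusted p = 0.0575) and, in edgeR, without CTR replicate 1 (0.112) or 2 (0.0748) and without CAC replicate 2 (0.0746) or 3 (0.153). Hspg2, whose product binds Vwa1, had a log2FC of -0.61 in the same libraries.

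Summed over each role, the basement membrane genes were at 272 to 299 CPM in CTR and 301 to 317 in CAC, with means of 289 and 309 CPM. These ranges did not overlap, by a narrow margin, and no test was made of a sum. Mean CPM went from 108 to 123 for Lamb1, whose groups overlapped, from 13.7 to 20.5 for Lamc1 and from 27.9 to 18.4 for Hspg2. Of the 8 tested genes of this list, 5 had a positive and 3 a negative log2FC, with a median of 0.09. The small leucine-rich proteoglycans were at 321 to 361 and 302 to 433 CPM, the adhesive and matricellular genes at 1180 to 1283 and 1068 to 1281 CPM, and the elastic fibre genes at 52.9 to 63.1 and 53.5 to 73.4 CPM. The fibroblast and progenitor markers, from cells that make much of the interstitial matrix, summed to 389 to 577 CPM in CTR and 331 to 540 in CAC. A marker of that list, Ly6a, rose from 38.1 ± 5.26 to 76.8 ± 13.5 CPM (log2FC 1.02, edgeR adjusted p = 0.000238, SD, n = 4), while 5 of its 9 genes had a negative log2FC.

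**Figure D5:**
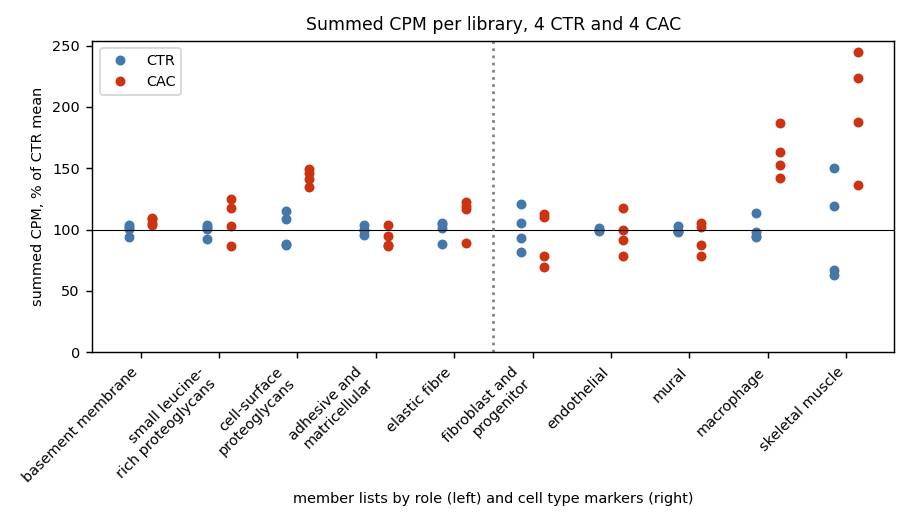
Summed CPM of 5 role lists (left) and 5 cell type marker lists (right) in each CTR (blue) and CAC (red) library, as a percentage of the CTR mean (vertical axis, from 0). The basement membrane, cell-surface proteoglycan and macrophage sums are higher in every CAC than in every CTR library, while fibroblast, endothelial and mural sums overlap between the groups.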

How the data were processed

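RNA from BAT was sequenced single-end for 4 mice of each group, and libraries were grouped by their labels. The authors checked reads with FastQC 0.11.9, aligned them to mm10 with Hisat2 2.2.1 and counted them with featureCounts under its multi-mapping option. The deposited expected counts hold fractions in 25.1% to 28.4% of nonzero values and were rounded. A second deposited table holds a signal that the authors normalized with DESeq2, used here for limma-trend after adding 1 and taking log2. All 47 members matched GENCODE M21 (GRCm38) by Ensembl ID without version, as did 91.4% of all IDs.

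Counts were analysed with edgeR 4.0.16 in R 4.3.3: filterByExpr, TMM, and a quasi-likelihood fit (robust) of the group without covariates, with Benjamini-Hochberg adjustment over all genes tested and a threshold of 0.05. The procedure was tested on simulated data. Members below the filter and chain ratios were compared by exact two-sided permutation over 70 assignments. Alternatives were upper quartile or library size normalization, leaving out the filter, at least 10 counts in every library, DESeq2 1.42.0, limma 3.58.1, the replicate number as a block, an adjusted p under 0.10 and leaving out each library. Ratios from unrounded counts were added after seeing the data. Every member is named; values in every library are given for members that were called or did not overlap between groups and for the 2 with the largest mean CPM in each role list. Of the 3 other matrix lists, called genes and the 2 with the smallest p are named. Most cell type marker lists, but not all, are given by their sums, with called genes named. The members and lists were chosen with earlier results of these data known. Depth, 1823167 to 4827956 counts per library, limits the precision of members with few counts. Promoters come from RefSeq (GRCm38.p6), where 31 members had an entry. Plots used Python 3.11.15 and matplotlib 3.10.9.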

Additional observations from a re-analysis of the deposited data

Results flagged for a closer look

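In groups of 4 libraries, 9 of 136 groups of values had a library far from the other 3 by Dixon's 95% criterion, which chance meets in about 1 of 20 groups. For Lamc1, CAC replicate 4 was at 14.6 CPM against 22.3 to 22.7 CPM in the other CAC libraries. For Prelp, CTR replicate 1 was at 65.9 CPM against 81.3 to 83.1 CPM. For Postn, CAC replicate 3 was at 13.2 CPM against 7.03 to 8.02 CPM. Among the members below the filter, Lama2 stood apart in CTR replicate 3 (4.98 CPM, the others 2.66 to 2.88) and in CAC replicate 3 (5.86 CPM, the others 1.06 to 1.62), and Vcan in CTR replicate 1 (1.8 CPM, the others 2.4 to 2.49). The summed elastic fibre members were at 53.5 CPM in CAC replicate 1 against 70 to 73.4 CPM in the others. Among the marker sums, the mural markers were at 186 CPM in CTR replicate 2 against 177 to 178 CPM, and the Schwann cell markers, from cells wrapped in a laminin-rich sheet, at 395 CPM in CAC replicate 1 against 235 to 252 CPM.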

How the results depend on the processing

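Of 427 values of single members under the alternatives, 400 kept both their direction and their side of the threshold, 10 lost the call of Sdc4 and 1 gained one, Hspg2 without a filter (log2 fold change -0.63). The number of members called was 0 with upper quartile normalization (Sdc4 adjusted p = 0.0595), with at least 10 counts in every library (0.0506) and with DESeq2 (0.0641), was 2 with no filter, and ran from 0 to 1 when each library was left out. The median log2 fold change of the members was 0.08 to 0.16 over the fits with a library left out, lowest without CTR replicate 3, and 0.09 without CAC replicate 2. The sign changed for 5 members over the alternatives, with ranges of -0.53 to 0.29 for Lamc3 (0.00 by DESeq2), -0.21 to 0.09 for Nid1, -0.26 to 0.29 for Sdc2, -0.30 to 0.08 for Postn and -0.02 to 0.27 for Fbn1. Apart from the value by DESeq2, these changes came with a library left out, and their cause was not tested. Other small values kept their sign but moved with a library left out. The ranges were 0.09 to 0.28 for Agrn, 0.01 to 0.16 for Lamb2, 0.13 to 0.33 for Dcn and 0.10 to 0.24 for Mgp. They were -0.23 to -0.03 for Prelp and -0.27 to -0.06 for Mfap5. Over all genes, 92 were called (73 higher, 19 lower), 351 with no filter (219 higher, 132 lower), 140 with the replicate block, and 42 (without CTR replicate 1) to 135 (without CTR replicate 3) with a library left out. The labels do not say that the replicate numbers pair the mice. The same-number correlations of deviations were -0.023 to 0.036, and not every library correlated best with its own number. With 4 libraries per group, such values cannot exclude a pairing. With the block, 1 member was called, Sdc4. With a library left out, the difference in log2 ratio was -1.22 to -0.46 for Lama2 to Lama4, -0.48 to 0.08 for Lama5 to Lama4 (positive without CAC replicate 3), -0.02 to 0.18 for Lamb1 to Lamb2 (negative without CTR replicate 2) and 1.19 to 2.2 for Nid1 to Nid2. Depth limits the 18 members with too few counts for the filter.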
